A study of Homo sapiens with 12 samples.

Results

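The comparison is 17-AAG given alone against control in the human prostate cancer cell line PC3, as labelled, and it uses 5 of the study's 12 arrays. The drug arrays are the 3 titled as 17-AAG replicates 1 to 3, from cells harvested 48 h after 17-AAG was added to 40 nM. The controls are the arrays titled as control replicates 1 and 3, labelled untreated, for which the protocol gives an equal amount of vehicle. The other arrays are 3 with both drugs, 3 with 2.5 µM Wee1 inhibitor II added 24 h before the time of 17-AAG, and control replicate 2. The title of control replicate 2 marks it as of weak signal, and it was left out for that reason. RNA was measured on 3′ expression arrays, and each value is a linear signal of a probe set. Of the probe sets, 41091 carry 1 gene symbol, and the brightest probe set of each symbol gave 19775 genes. Genes with a geometric mean signal of at least 100 in either group, 8479 in all, carry most of the account.

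17-AAG (tanespimycin) is a derivative of geldanamycin that occupies the ATP pocket of the chaperone Hsp90. Hsp90 with its co-chaperones finishes the folding of many kinases and receptors, called clients, which are ubiquitinated and broken down by the proteasome when the chaperone is blocked. Hsp90 also holds the transcription factor HSF1 in check, and Hsp90 inhibitors are known in many cell lines to raise transcripts of HSF1 targets such as DNAJB1 and the inducible Hsp70 genes. Wee1 is a kinase that restrains CDK1, the kinase of mitotic entry, and is itself an Hsp90 client.

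The signals are scaled to a 2% trimmed mean of 150 on each array, and array medians ran from 17.7 to 23.1 over the 11 arrays fitted. Log2 signals of a 17-AAG array and a control array correlated at 0.925 to 0.929 over all 54675 probe sets, and arrays of the same group among these 5 at 0.933 to 0.936. No pair of arrays was identical. Several markers went against the label PC3. Of 14 prostate and epithelial markers, 2 (KRT18 and ESRP1) reached a signal of 100 on any of the 11 arrays, and HOXB13, a prostate homeobox gene, stayed at or below 11.3 on the 5 arrays compared. CTNNA1, which is deleted in PC3 cells, had signals of 2639, 2633 and 2690 with 17-AAG, and 2824 and 2992 in control. Of 15 pigment cell genes, 14 reached 100. In bulk RNA, fewer cells of a type and less RNA per cell cannot be told apart. Control replicate 2 correlated with the other 11 arrays at 0.825 to 0.833 over the same probe sets, and its signals were 2087 for HOXB13 and 1.57 for CTNNA1. How the cells of these arrays relate to their labels was not tested. A second sign of sample state also moved with the drug: the log2 gap between the 3′ and 5′ ACTB control probe sets was 0.96 ± 0.08 with 17-AAG (SD, n = 3) and 0.69 ± 0.03 in control (SD, n = 2), while the GAPDH gap was -0.04 ± 0.04 with 17-AAG and -0.06 ± 0.004 in control. The part of RNA quality in the results was not tested.

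At an adjusted p under 0.05 in limma, here termed called, 1964 genes rose with 17-AAG (9.93% of 19775) and 1345 fell (6.80%), 16.7% in all. Among the genes with signal of at least 100, 1570 rose (18.5%) and 1211 fell (14.3%), or 32.8% in all. Most of these changes were small. The median absolute log2 fold change of the called genes with signal of at least 100 was 0.61, and 1282 of the 2781 changed by less than 1.5-fold. Called changes of at least 2-fold made up 3.59% of all genes. At a signal of at least 100 they were seen for 288 genes that rose and 100 that fell, at least 4-fold for 21 and 4, and at least 8-fold for 3 and 2. Among the 11296 dimmer genes 528 were called, 4.67%, of which 394 rose and 134 fell. The SD between arrays of a group was 0.78 on the log2 scale for genes under a signal of 32, and 0.13 for genes from 100 to 400. Arrays did not overlap between groups for any of the 2781 called genes, nor for 67.4% of all genes with signal of at least 100. Counts of list members called, given below, are to be read beside the shares over all genes and over those with such signal.

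These calls rest on a spread shared with 6 arrays of the other groups. Fitted on the 5 arrays alone, limma called 0 genes, with a smallest adjusted p of 0.0606, while 4816 genes had an unadjusted p under 0.05, and 98.7% of the called genes were among them. Without control replicate 1 the count was 1728, without control replicate 3 it was 1705, and without 17-AAG replicate 1 it was 2158. In each of the 5 fits that left out 1 of these arrays, 1132 genes stayed called the same way, 756 of them higher and 376 lower with 17-AAG. With control replicate 2 included 480 genes were called, and among genes named below MMP8, AMPH, NFKB1, CCNB1, TNFRSF21, SNAI2 and TUBB6 changed direction. Nothing in the labels says whether the replicates were separate cultures, so the p-values measure the spread between these arrays. The 3 drug arrays were not alike in size of change: 17-AAG replicate 2 was the nearest of the 3 to control for 61.3% of the rises and 61.5% of the falls with signal of at least 100.

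**Figure D1:**
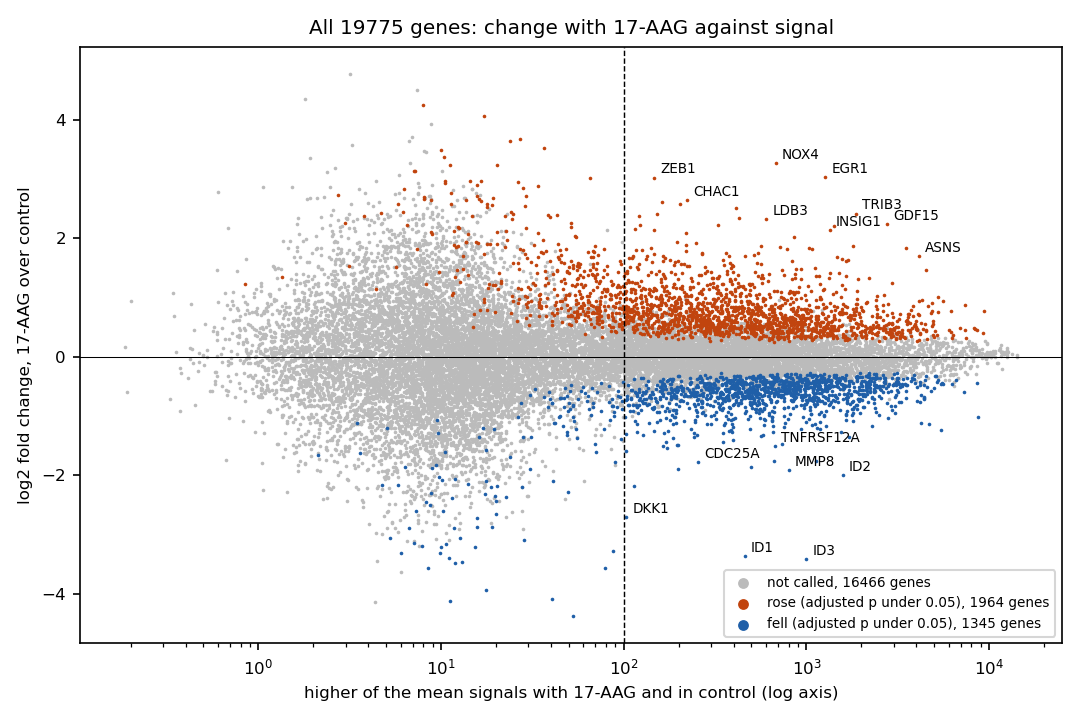
Each point is 1 of 19775 genes, with the higher of its 2 group mean signals on the x axis (log scale) and its log2 fold change, 17-AAG over control, on the y axis. Orange-red points rose, blue points fell and grey points were not called, and the dashed line marks a signal of 100, right of which NOX4 at 3.27 and ID3 at -3.42 are the extremes.

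Among genes with signal of at least 100, the largest rise was that of NOX4, an NADPH oxidase that makes hydrogen peroxide. Its signals were 794, 451 and 867 with 17-AAG, and 71.8 and 68.5 in control. The groups stood far apart, and 17-AAG replicate 2 was the lowest of the drug arrays. The log2 fold change was 3.27 ± 0.25 (SE), 9.65-fold, with an adjusted p of 0.00037. EGR1, a zinc finger transcription factor of the immediate early class, had signals of 1584, 806 and 1599 with 17-AAG, and 159 and 150 in control (log2 fold change 3.04 ± 0.37, adjusted p 0.0019). Its other probe sets gave 2.57 and 3.03. ZEB1, a transcriptional repressor of epithelial genes, had signals of 150, 133 and 155 with 17-AAG, and 25.6 and 12.5 in control (3.02 ± 0.29, adjusted p 0.00071). Its control signals lie near the array medians, and with signals below 32 set to 32 the rise was 2.19 on the log2 scale, a lower bound. PDK4, the kinase that turns off pyruvate dehydrogenase, had 208, 209 and 192 with 17-AAG, and 40.5 and 28.8 in control (2.57 ± 0.15, adjusted p 0.00023). PDK4 thus stood alike on all 3 drug arrays, as did LDB3, a Z-disc protein of muscle, at 619, 564 and 633 with 17-AAG and 126 and 116 in control (2.32 ± 0.13). ENPP2 encodes autotaxin, which makes lysophosphatidic acid. It had signals of 329, 339 and 317 with 17-AAG, and 67.4 and 73.0 in control (2.23 ± 0.12). The remaining 9 of the 15 largest rises were CHAC1, SESN2, TRIB3 and GDF15, which belong to the stress genes described further on, and IMMP2L, APCDD1, MAP4K3-DT, ST6GALNAC2 and SEL1L3, with log2 fold changes of 2.23 to 2.64. With signals below 32 set to 32 they gave 2.31 for SESN2, 2.25 for APCDD1, 1.92 for MAP4K3-DT and 1.95 for SEL1L3. Other probe sets gave smaller rises, of 1.63 for LDB3, 1.75 for SESN2 and 1.69 for TRIB3, and with the probe sets of a gene averaged PDK4 (1.77, adjusted p 0.16) and LDB3 (0.79, adjusted p 0.069) were no longer called.

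Some of these genes had like signals on the arrays with Wee1 inhibitor II and no 17-AAG, and the 5 given here were chosen after their values were seen. Both groups are set beside the same 2 control arrays. CHAC1 averaged 223 with 17-AAG and 233 with Wee1 inhibitor II alone, beside 35.8 in control. IMMP2L averaged 413 with 17-AAG and 417 with Wee1 inhibitor II alone, beside 72.5 in control, and ST6GALNAC2 averaged 426 with 17-AAG and 459 with Wee1 inhibitor II alone, beside 84.3 in control. SESN2 averaged 162 with 17-AAG, 161 with Wee1 inhibitor II alone and 26.7 in control, and SEL1L3 123, 177 and 26.4 in the same groups. PDK4 averaged 203 with 17-AAG and 38.3 with Wee1 inhibitor II alone, beside 34.1 in control.

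The largest falls were led by ID3 and ID1, dominant negative partners of basic helix-loop-helix factors and well known targets of bone morphogenetic protein (BMP) signalling. ID3 had signals of 92.7, 105 and 84.1 with 17-AAG, and 1040 and 958 in control, a fall by 3.42 ± 0.11 (SE) on the log2 scale, 10.7-fold, with an adjusted p of 1.8e-05. ID1 had 49.4, 33.3 and 54.5 with 17-AAG, and 476 and 444 in control (-3.36 ± 0.22, adjusted p 0.00023). No drug array came near a control array for either gene.
DKK1, a secreted Wnt antagonist, had 12.5, 17.6 and 18.0 with 17-AAG, and 101 and 106 in control (-2.71 ± 0.23, adjusted p 0.0005). Its drug signals lie at or below the array medians, and with signals below 32 set to 32 the log2 fold change was -1.69, a bound on the size of the fall. MIR3682 in the same way gave -1.83. ID2 had 460, 395 and 346 with 17-AAG, and 1492 and 1674 in control (-1.99 ± 0.13, adjusted p 0.00023), and its other probe set gave -2.13. Neutrophil collagenase MMP8 had 215, 228 and 197 with 17-AAG, and 800 and 797 in control (-1.91 ± 0.15). The groups were again far apart, and within the control pair MMP8 was almost equal. GLDC, the glycine decarboxylase of mitochondria, had 52.5, 45.4 and 63.0 with 17-AAG, and 214 and 184 in control (-1.90 ± 0.20). CDC25A is the phosphatase that removes the inhibitory phosphates from CDKs. Its signals were 63.7, 81.6 and 79.1 with 17-AAG, and 243 and 268 in control (-1.78 ± 0.29, adjusted p 0.0056). Its other probe set gave -1.10 and was not called (adjusted p 0.15 over all probe sets). With probe sets averaged, CDC25A (-1.30, adjusted p 0.10) and SERPINB8 (-1.07, adjusted p 0.079) lost their calls. TNFRSF12A, the receptor of the cytokine TWEAK, had 272, 244 and 199 with 17-AAG, and 669 and 670 in control (-1.50 ± 0.18). The other 7 of the 15 largest falls were MIR3682, PLPP4, AMPH, TMEM45A, SPATS1, SERPINB8 and S100A3, with log2 fold changes from -2.18 to -1.51. Some falls were also seen with Wee1 inhibitor II and no 17-AAG, and the genes given here were chosen after their values were seen. MMP8 averaged 213 with 17-AAG, 181 with Wee1 inhibitor II alone and 799 on the same 2 control arrays. In the same groups CDC25A averaged 74.4, 68.5 and 256, and AMPH 197, 272 and 668. Above control with Wee1 inhibitor II alone were DKK1 (15.8, 562 and 103), S100A3 (57.7, 216 and 164) and TNFRSF12A (236, 896 and 670). SPATS1 lost its call without control replicate 1, where its adjusted p passed 0.05, and 29 of the 30 largest changes kept their calls without each of the 5 arrays in turn.

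**Figure D2:**
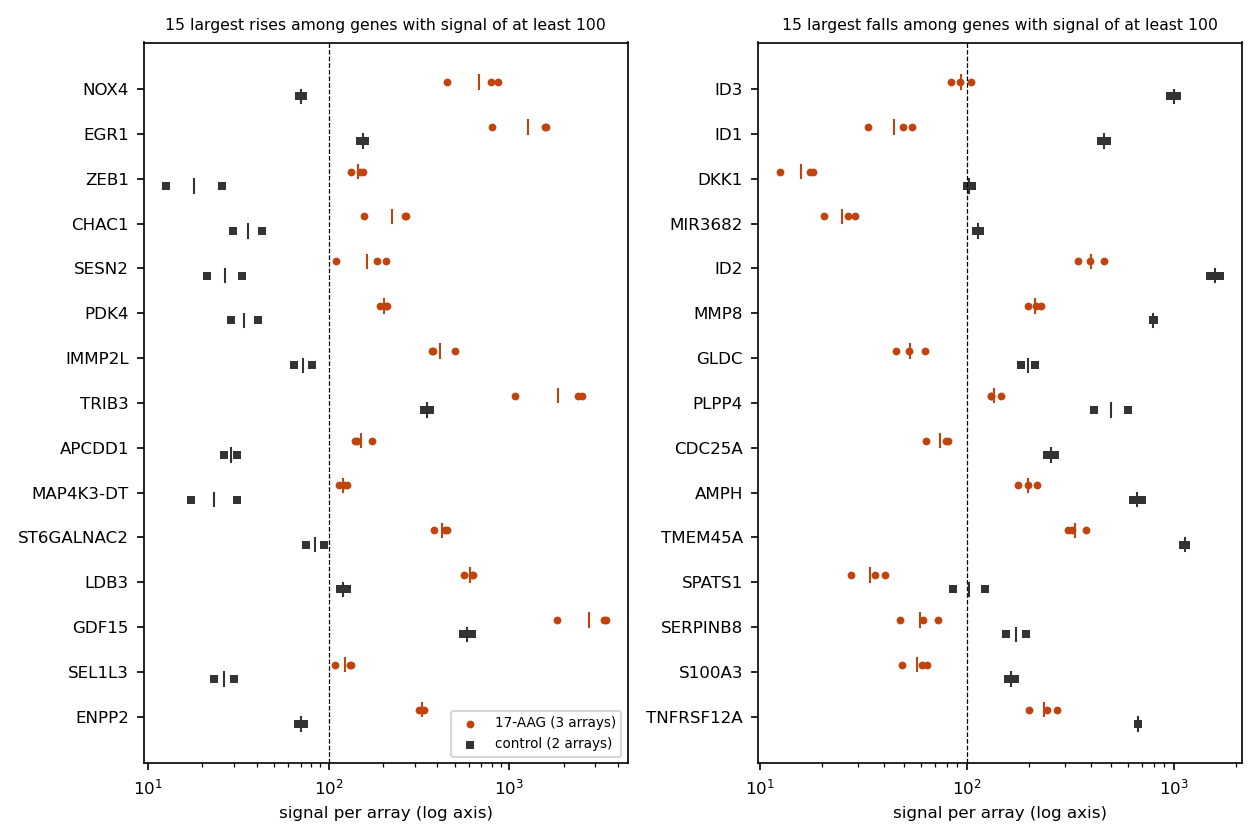
Signal on each array (x axis, log scale) for the 15 largest rises (left panel) and the 15 largest falls (right panel) among genes with signal of at least 100. Orange circles are the 3 17-AAG arrays, black squares the 2 control arrays and short bars the geometric means. Genes were picked with no overlap between the groups, a condition that all 2781 called genes with such signal met.

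Heat shock genes were lower with 17-AAG, the opposite of what Hsp90 inhibitors are known for. Of the 30 members measured, 11 fell (36.7%) while ATF3 alone rose (3.33%), beside 14.3% and 18.5% of genes with signal of at least 100. The median log2 fold change was -0.27, beside 0.01 over all genes. DNAJB1, an Hsp40 that delivers substrates to Hsp70, had signals of 480, 564 and 490 with 17-AAG, and 1197 and 1186 in control (log2 fold change -1.22 ± 0.09, adjusted p 0.00037). CHORDC1, a co-chaperone of Hsp90, had 787, 904 and 868 with 17-AAG, and 1836 and 1764 in control (-1.08 ± 0.09, adjusted p 0.0005). The Hsp40 DNAJA1 had 1806, 2324 and 1740 with 17-AAG, and 4156 and 4290 in control (-1.12 ± 0.13, adjusted p 0.0014). In all these genes the drug arrays lay below the control arrays, with 17-AAG replicate 2 the nearest to control. DNAJB4 (-1.13), DNAJB6 (-0.81), the Hsp110 nucleotide exchange factor HSPH1 (-0.76) and the mitochondrial co-chaperonin HSPE1 (-0.59) also fell. ATF3, a stress transcription factor, had 391, 258 and 420 with 17-AAG, and 106 and 119 in control (1.64 ± 0.19). The falls numbered 7 without control replicate 1. Several well known HSF1 targets were not called: BAG3 had 1191, 1039 and 1150 with 17-AAG, and 1300 and 1349 in control (adjusted p 0.15), and HSPB1 had 2502, 2721 and 2492 with 17-AAG, and 2367 and 2513 in control (adjusted p 0.71). The probe sets of HSPA1A, HSPA1B and HSPA8 carry several gene symbols and were not analysed here. The Wee1 inhibitor II arrays, without 17-AAG, stood against the same 2 control arrays at a list median of -0.34, and those with both drugs at 0.03. Whether tubes or arrays were exchanged was not tested, and no gene is altered by design in these cells to check the labels. The ACTB end gap of the 3 17-AAG arrays, 0.96 ± 0.08, lay beside 0.96 ± 0.05 with both drugs (n = 3) and 0.68 ± 0.09 with Wee1 inhibitor II alone (n = 3).

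The promoters of 2 heat shock genes that fell are shown because, of the called members that hold a core of the heat shock element, GAANNTTC, these fell the most. That core reads the same on both strands. They are the 250 bases before the RefSeq start on GRCh38.p14, 5′ to 3′ on the strand of the gene, CHORDC1 at chr11:90223050-90223299 (minus strand) and DNAJA1 at chr9:33025023-33025272 (plus strand), with the matches in capitals.
CHORDC1: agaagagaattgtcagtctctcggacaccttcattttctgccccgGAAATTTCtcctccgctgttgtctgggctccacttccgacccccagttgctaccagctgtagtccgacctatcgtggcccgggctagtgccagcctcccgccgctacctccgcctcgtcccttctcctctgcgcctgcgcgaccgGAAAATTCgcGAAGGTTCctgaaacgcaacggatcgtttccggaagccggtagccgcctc
DNAJA1: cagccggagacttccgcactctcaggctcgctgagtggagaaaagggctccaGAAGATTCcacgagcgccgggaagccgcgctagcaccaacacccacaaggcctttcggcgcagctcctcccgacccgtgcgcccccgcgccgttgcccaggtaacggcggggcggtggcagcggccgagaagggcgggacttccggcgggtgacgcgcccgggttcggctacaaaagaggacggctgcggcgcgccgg
CHORDC1 holds 3 matches, the first of them 205 bases before the start, and DNAJA1 holds 1, at 198 bases. Matches stood in 7 of 27 heat shock promoters found and in 4.77% of the 15384 promoters of genes tested. Of the 12 called members with a promoter 5 held a match, and of the 15 members not called, 2 did. A match is a description of letters, not a site.

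Transcripts of Hsp90 itself were not called. HSP90AA1, the inducible cytosolic Hsp90, had signals of 9209, 11305 and 10522 with 17-AAG, and 10929 and 11120 in control (log2 fold change -0.10 ± 0.11, adjusted p 0.63). The constitutive HSP90AB1 had 4959, 5911 and 5393 with 17-AAG, and 6558 and 6612 in control, without overlap (-0.28 ± 0.09, adjusted p 0.068). Of 29 Hsp90 paralogues and co-chaperones 6 fell (20.7%) and 1 rose (3.45%), beside 14.3% and 18.5% of genes with signal of at least 100. Their median was -0.15. The cyclophilin PPID fell by 0.87 ± 0.14 on the log2 scale, the dynein-linked NUDC by 0.72 ± 0.12, the phosphatase PPP5C by 0.71, and STIP1, which links Hsp70 to Hsp90, by 0.69 ± 0.13. Here 3 fell and none rose without control replicate 1, and the rise of UNC45A was lost without any 1 of the 17-AAG arrays or that control.

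Transcripts of Hsp90 clients were called about as often as those of all genes. Of 39 clients measured, 4 rose (10.3%) and 3 fell (7.69%), beside 9.93% and 6.80% of all genes, with a median of 0.18. The drug is known to act on client proteins. The receptor ERBB3 had 2042, 1575 and 1990 with 17-AAG, and 1036 and 1056 in control (0.83 ± 0.13). ILK, integrin-linked kinase, had 495, 491 and 492 with 17-AAG, and 192 and 237 in control (1.21 ± 0.17), and the Src family kinase FYN had 2082, 1956 and 1930 with 17-AAG, and 1358 and 1342 in control (0.56 ± 0.08). The insulin-like growth factor receptor IGF1R also rose, at 0.84. These 4 rose without overlap of arrays. CDK4, a kinase of G1, had 1962, 2133 and 1860 with 17-AAG, and 3053 and 3167 in control (-0.65 ± 0.09, adjusted p 0.0026). The NF-kB adaptor IKBKG (-1.07) and the mitotic kinase PLK1 (-0.36) fell as well, and 1 client fell without control replicate 1. WEE1 had 849, 737 and 831 with 17-AAG, and 758 and 822 in control (0.03 ± 0.11, adjusted p 0.91), so its arrays overlapped. AKT1 (0.06 ± 0.10), ERBB2 (0.48 ± 0.19, adjusted p 0.14) and MET (0.67 ± 0.25, adjusted p 0.12) were not called, and EGFR stayed at or below 25.4 on the 5 arrays.

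Proteasome subunits, which make up the protease that breaks down ubiquitinated proteins, were lower. Of 30 subunits, all with signal of at least 100, 16 fell (53.3%, beside 14.3% of all genes with such signal) and 0 rose, with a median log2 fold change of -0.43. The lid subunit PSMD12 had signals of 1301, 1564 and 1256 with 17-AAG, and 2744 and 2857 in control (-1.03 ± 0.10, adjusted p 0.00089). ADRM1, a ubiquitin receptor of the regulatory particle, had 623, 692 and 579 with 17-AAG, and 1252 and 1238 in control (-0.98 ± 0.10). PSMD11 fell by 0.83 ± 0.11 and the ATPase PSMC4 by 0.72 ± 0.10 on the log2 scale. Falls were spread over the core, base and lid, from PSMA4 (-0.46) and PSMB5 (-0.59) to PSMC3 (-0.67) and PSMD3 (-0.69). Without control replicate 3 there were 9 falls, and 10 without 17-AAG replicate 1 or 3. Against the same 2 control arrays, the list stood at a median of -0.36 with Wee1 inhibitor II alone and -0.41 with both drugs. The chaperonin CCT and prefoldin, which fold actin and tubulin, had 5 falls and 1 rise among 12, and 0 of either without control replicate 1 or 3. The 5 falls became 2 without 17-AAG replicate 1 and 1 without 17-AAG replicate 3, and the 1 rise, PFDN5 (0.41), was lost in each of these 5 fits.

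Endoplasmic reticulum genes were called about as often as other genes of such signal. Of 24 measured, all with signal of at least 100, 5 rose (20.8%) and 3 fell (12.5%), beside 18.5% and 14.3% of all genes with such signal, and the median was 0.04. HERPUD1, which serves degradation of misfolded membrane proteins, had 2837, 2244 and 2910 with 17-AAG, and 1253 and 1308 in control (1.05 ± 0.12, adjusted p 0.0015). The sensors ATF6 and ERN1 of the unfolded protein response rose by 1.12 ± 0.14 and 1.30 ± 0.23 on the log2 scale, and ERN1 was least raised on 17-AAG replicate 2, at 136 against 255 and 225 on the others and 81.2 and 79.5 in control. The luminal chaperone HSPA5 fell (-0.38), and so did DNAJB11 (-0.43) and CRELD2 (-0.35). Without control replicate 3, 2 rose and 0 fell, and 1 fell without control replicate 1, 17-AAG replicate 1 or 17-AAG replicate 3. Of 31 autophagy and lysosome genes, 4 rose (12.9%) and 3 fell (9.68%), also near the shares over all genes, with the cathepsins CTSB (0.53) and CTSZ (0.65) higher and ATG5 (-0.63), needed for the lipidation of LC3, lower. None of them was called without control replicate 1, and 2 rose and 0 fell without control replicate 3. Without 17-AAG replicate 1, 2 rose and 1 fell, and without 17-AAG replicate 3, 1 fell.

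Targets of ATF4, the transcription factor that is translated when eIF2α is phosphorylated under amino acid or other stress, were higher. Of 37 measured, 24 rose (64.9%, beside 18.5% of genes with signal of at least 100) and 0 fell, with a median of 0.87. ASNS, asparagine synthetase, had signals of 4389, 3368 and 4786 with 17-AAG, and 1274 and 1263 in control (1.71 ± 0.14, adjusted p 0.00044). PHGDH, which opens serine synthesis, had 1760, 1446 and 1750 with 17-AAG, and 651 and 630 in control (1.36 ± 0.10, adjusted p 0.00037). The stress coregulator NUPR1 had 2261, 1324 and 1913 with 17-AAG, and 460 and 519 in control (1.87 ± 0.20). All 3 genes were lowest among the drug arrays on 17-AAG replicate 2, still well above control. CHAC1, which degrades glutathione, had 269, 157 and 265 with 17-AAG, and 29.8 and 43.1 in control (2.64 ± 0.29, adjusted p 0.0012). The pseudokinase TRIB3, which restrains AKT and ATF4, had 2396, 1074 and 2541 with 17-AAG, and 363 and 338 in control (2.42 ± 0.33, adjusted p 0.0028). GDF15, a stress hormone of the TGF-beta family, had 3436, 1834 and 3366 with 17-AAG, and 553 and 624 in control (2.24 ± 0.25). SESN2, a leucine sensor that restrains mTORC1, had 208, 111 and 186 with 17-AAG, and 33.3 and 21.4 in control (2.61 ± 0.29). Other members that rose were ATF4 itself by 0.87, the transporters SLC7A11 by 1.31 and SLC38A2 by 0.74, and the serine enzymes PSAT1 by 0.90 and PSPH by 0.81 on the log2 scale.
The list median relative to control was 1.07, 0.57 and 1.07 on 17-AAG replicates 1, 2 and 3. Without either control replicate 1 or control replicate 3, 15 rose. Against the same 2 control arrays, the list median was 1.29 with Wee1 inhibitor II alone and 1.02 with both drugs, so the arrays without 17-AAG lay on the same side of control. Aminoacyl-tRNA synthetases, many of which are ATF4 targets, had 7 rises (38.9%) and 1 fall (5.56%) among 18. AARS1 stood at 1.02 ± 0.14 and GARS1 at 0.75 ± 0.11, and FARSA was the one that fell (-0.61). Here 4 rose without either control array or without 17-AAG replicate 1 or 3, none fell without either control array, and 2 fell without 17-AAG replicate 2.

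The promoters of ASNS and CHAC1 are shown as those of strongly raised ATF4 targets that hold the composite C/EBP-ATF core TGATGNAA, searched on both strands. They are the 250 bases before the RefSeq start on GRCh38.p14, ASNS at chr7:97872409-97872658 (minus strand) and CHAC1 at chr15:40953221-40953470 (plus strand, where the match is on the opposite strand), with the match in capitals.
ASNS: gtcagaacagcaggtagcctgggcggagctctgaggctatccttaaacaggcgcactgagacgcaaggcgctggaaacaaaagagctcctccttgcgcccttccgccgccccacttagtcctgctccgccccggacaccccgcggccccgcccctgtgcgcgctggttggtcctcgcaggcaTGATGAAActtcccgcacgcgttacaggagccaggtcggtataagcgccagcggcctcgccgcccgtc
CHAC1: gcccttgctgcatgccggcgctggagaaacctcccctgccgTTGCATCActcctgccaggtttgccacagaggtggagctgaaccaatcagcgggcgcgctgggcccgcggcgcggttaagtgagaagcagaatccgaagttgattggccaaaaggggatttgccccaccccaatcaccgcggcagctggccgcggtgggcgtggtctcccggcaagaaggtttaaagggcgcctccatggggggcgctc
The match begins 68 bases before the start in ASNS and 209 bases before it in CHAC1. It stood in 4 of 30 ATF4 target promoters found, 3 of them among the 19 called members, and in 2.31% of the 15384 promoters.

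The called sterol and fatty acid synthesis genes all rose. Of 20 cholesterol synthesis and sterol-regulated genes 9 rose (45%) and 0 fell, with a median of 0.51. Of 15 fatty acid genes 6 rose (40%) and 0 fell, with a median of 0.26. Of all genes with signal of at least 100, for comparison, 18.5% rose and 14.3% fell. INSIG1, which holds the SREBP precursors in the endoplasmic reticulum and is itself an SREBP target, had 1248, 1476 and 1310 with 17-AAG, and 379 and 247 in control (2.13 ± 0.18, adjusted p 0.0005). Lanosterol synthase LSS had 1356, 1208 and 1171 with 17-AAG, and 529 and 595 in control (1.15 ± 0.13). MSMO1, a sterol demethylase, had 1412, 1722 and 1495 with 17-AAG, and 726 and 800 in control (1.01 ± 0.12). Here 17-AAG replicate 2 stood highest for INSIG1 and MSMO1, and its list median was 0.68, against 0.48 and 0.47 on replicates 1 and 3. DHCR7 (0.95), HMGCS1 (0.66), FDPS (0.55) and SQLE (0.47) also rose, as did the regulator SREBF2 (0.82). SREBF1, which drives fatty acid synthesis, had 580, 450 and 518 with 17-AAG, and 153 and 160 in control (1.71 ± 0.12, adjusted p 0.00031). The desaturase SCD had 5028, 5376 and 5373 with 17-AAG, and 2609 and 2634 in control (1.00 ± 0.07, adjusted p 0.00029). ACSS2, which makes acetyl-CoA from acetate, rose by 1.70 ± 0.16 on the log2 scale. Sterol gene rises numbered 4 without control replicate 1 and 5 without control replicate 3. Unlike the ATF4 targets, the sterol genes stood at medians of -0.20 with Wee1 inhibitor II alone and -0.19 with both drugs against the same 2 control arrays; whether these differ from 17-AAG alone as a list was not tested, but for INSIG1 the interaction, its log2 fold change of both drugs over Wee1 inhibitor II minus that of 17-AAG over control, was -2.41 (adjusted p 0.0013).

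**Figure D3:**
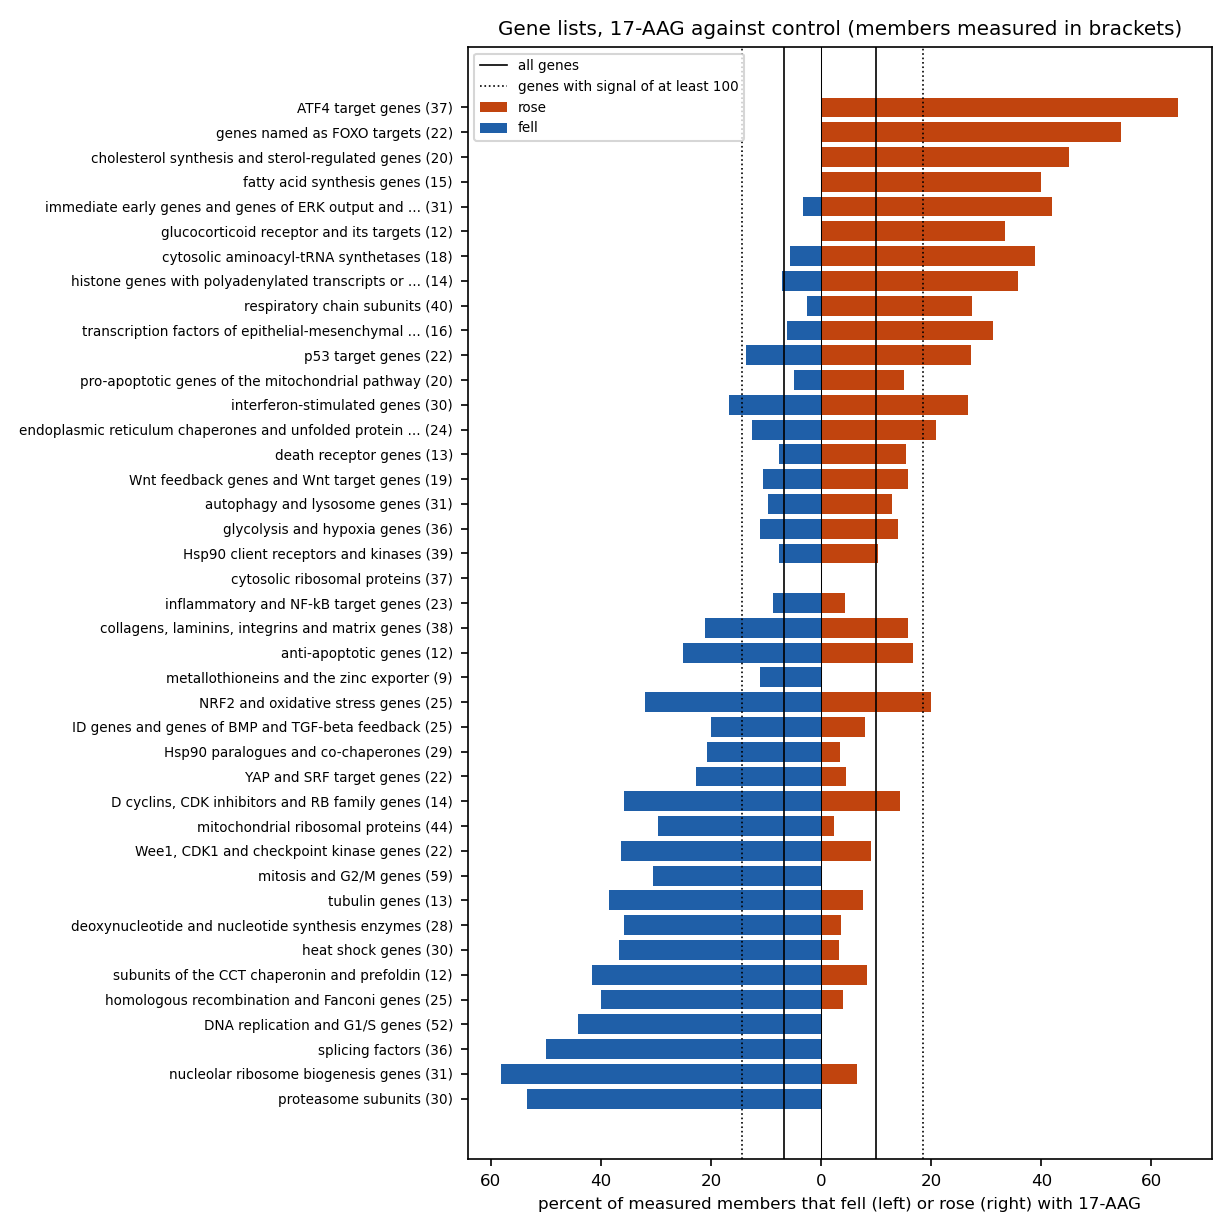
For each of 41 gene lists, the percent of measured members that rose (orange-red, to the right) or fell (blue, to the left) with 17-AAG, ordered by the difference. Solid lines mark the same shares over all genes, 9.93% and 6.80%, dotted lines those over genes with signal of at least 100, 18.5% and 14.3%, and ATF4 targets stand at the top and proteasome subunits at the bottom.

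ID1, ID2 and ID3 led the falls of the BMP and TGF-beta list among genes with signal of at least 100, and the list had calls in both directions. Of 25 measured, 5 fell (20%) and 2 rose (8%), with a median of 0.05. The shares were 6.80% and 9.93% over all genes, and 14.3% and 18.5% over genes with signal of at least 100. Besides ID1, ID2 and ID3, ID4 (-0.61) and TGFBI, a matrix protein induced by TGF-beta, fell. TGFBI was dim, at 43.1 and 37.8 in control and below the array medians with 17-AAG, so no fold is given. SMAD9, a BMP-activated SMAD, had 400, 281 and 344 with 17-AAG, and 182 and 140 in control (1.08 ± 0.17), and the receptor BMPR2 rose by 0.59. Rises numbered 4 without control replicate 1 and 1 without control replicate 3. ID3 averaged 153 with Wee1 inhibitor II alone and 136 with both drugs, also below the same control arrays. Of 19 Wnt genes, 3 rose (15.8%) and 2 fell (10.5%), with AXIN2 (1.69 ± 0.30), a feedback inhibitor, and the receptor FZD7 (0.51) higher and DKK1 and WNT5A (-0.53 ± 0.15) lower. MYC, which stands in this list and others, had 3072, 3159 and 3367 with 17-AAG, and 2040 and 2070 in control (0.64 ± 0.12, adjusted p 0.0099). None of the Wnt list rose without control replicate 3, and 1 fell without control replicate 1 or 17-AAG replicate 1 or 2.

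Of 31 genes of the immediate early class and of ERK feedback, 13 rose (41.9%, beside 18.5% of genes with signal of at least 100) and 1 fell, with a median of 0.48. Beside EGR1 and ATF3, the ETS factor ETV5 had 2427, 2281 and 2573 with 17-AAG, and 1226 and 1159 in control (1.02 ± 0.09, adjusted p 0.0007). PHLDA1 had 3111, 2479 and 3280 with 17-AAG, and 1230 and 1253 in control (1.24 ± 0.12). FOS (1.75), IER2 (1.00), ETV4 (0.97) and the ERK pathway inhibitors SPRY1 (1.02), SPRY4 (0.91) and SPRY2 (0.54) rose, and the AP-1 member FOSL1 fell (-1.43). Rises numbered 13, 18 and 12 without 17-AAG replicates 1, 2 and 3, and the list median was 0.40 without control replicate 1 and 0.52 without control replicate 3. Against the same controls the list stood at 0.78 with Wee1 inhibitor II alone and 0.07 with both drugs. With both drugs against Wee1 inhibitor II alone, 0 members rose and 18 fell.

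Genes named as targets of FOXO factors, which act when insulin and AKT signalling is low, rose in 12 of 22 (54.5%) with 0 falls. That stands beside 18.5% of genes with signal of at least 100, and the list median was 0.69. Beside PDK4, the atrophy ubiquitin ligase FBXO32 had 396, 382 and 415 with 17-AAG, and 148 and 147 in control (1.43 ± 0.09, adjusted p 0.00023). TXNIP, which restrains glucose uptake, had 1726, 1174 and 1890 with 17-AAG, and 520 and 482 in control (1.64 ± 0.21). The BH3-only killer BCL2L11 (BIM) had 267, 203 and 354 with 17-AAG, and 80.8 and 81.2 in control (1.73 ± 0.28, adjusted p 0.0052). Catalase (CAT, 0.74 ± 0.09), SESN3 (1.11), SESN1 (0.73) and CCNG2 (0.72) rose too. Rises numbered 7 without control replicate 1, control replicate 3 or 17-AAG replicate 3. The list also stood at 0.78 with Wee1 inhibitor II alone and 0.74 with both drugs against these controls. Of 12 glucocorticoid receptor genes 4 rose and 0 fell, with PDK4 and KLF15 shared with the FOXO list, GLUL (0.92 ± 0.08) and TSC22D3 (1.54 ± 0.33) the others, and 2 rose without control replicate 1, control replicate 3 or 17-AAG replicate 1.

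DNA replication and G1/S genes were lower. Of 52 measured, 23 fell (44.2%, beside 14.3% of genes with signal of at least 100) and 0 rose, with a median of -0.42. CCNE2, a cyclin of S phase entry, had signals of 395, 417 and 394 with 17-AAG, and 991 and 872 in control (-1.21 ± 0.13, adjusted p 0.00099). MCM10, which loads polymerase alpha, had 191, 297 and 220 with 17-AAG, and 623 and 533 in control (-1.31 ± 0.20, adjusted p 0.0044). TIPIN, of the fork protection complex, had 446, 534 and 421 with 17-AAG, and 990 and 1005 in control (-1.10 ± 0.13). The checkpoint adaptor CLSPN fell by 1.31, CDC6 by 0.96, CCNE1 by 0.88, the single-strand binder RPA2 by 0.72 ± 0.08 and PCNA by 0.58 on the log2 scale. Replication falls numbered 9 without control replicate 1, 11 without control replicate 3, 12 without 17-AAG replicate 1 and 14 without 17-AAG replicate 3. Against the same 2 control arrays, replication genes had a median log2 difference of -0.57 with Wee1 inhibitor II alone and -1.46 with both drugs, so they were below control without 17-AAG too. Nucleotide synthesis enzymes showed 10 falls (35.7%) and 1 rise (3.57%) among 28, with a median of -0.28. RRM2, the small subunit of ribonucleotide reductase, had 2055, 2296 and 2020 with 17-AAG, and 4522 and 4814 in control (-1.14 ± 0.11, adjusted p 0.00074), and the CTP synthase CTPS1 fell by 0.99 ± 0.09 while CTPS2 rose by 0.76. Falls numbered 6 without control replicate 1, and without control replicate 3, 4 fell and none rose. Homologous recombination and Fanconi genes had 10 falls (40%) and 1 rise (4%) among 25, with a median of -0.42. RAD51C (-1.04 ± 0.13) and NBN (-0.83 ± 0.09) were among those that fell. In that list 4 fell without control replicate 3 and 6 without 17-AAG replicate 1. Against these controls the medians with Wee1 inhibitor II alone were -0.39 for the nucleotide list and -0.48 for the recombination list.

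Mitotic genes were lower as well. Of 59 measured, 18 fell (30.5%, beside 14.3% of genes with signal of at least 100) and 0 rose, with a median of -0.29. SPC25 of the kinetochore had 452, 553 and 488 with 17-AAG, and 1237 and 1061 in control (-1.21 ± 0.16). CCNA2 had 699, 697 and 703 with 17-AAG, and 1144 and 1185 in control (-0.73 ± 0.09), and CCNB1, the cyclin of CDK1, had 1847, 1985 and 1793 with 17-AAG, and 2536 and 2737 in control (-0.49 ± 0.08, adjusted p 0.006). CDK1 itself had 4040, 4500 and 4218 with 17-AAG, and 3294 and 4192 in control, overlapping (0.19 ± 0.18, adjusted p 0.57). The mitotic median was -0.25 with Wee1 inhibitor II alone against the same controls. Mitotic falls numbered 6 without control replicate 1 or 3, and 10 without 17-AAG replicate 1 or 3. Of 22 checkpoint genes 8 fell (36.4%), CDC25A the most, and ATM (0.56) and RAD17 (0.53 ± 0.09) rose. Without control replicate 1, 3 fell and 1 rose, without control replicate 3, 4 fell and 1 rose, and without 17-AAG replicate 1, 3 fell. Among 14 D cyclin, CDK inhibitor and RB family genes, RB1 had 425, 483 and 517 with 17-AAG, and 1055 and 861 in control (-1.01 ± 0.12), its relative RBL1 fell by 0.82 ± 0.15, and RBL2 (0.67) and the CDK inhibitor CDKN1C (1.29 ± 0.18) rose. CDKN1A, the p53-responsive inhibitor p21, had 65.0, 87.6 and 50.7 with 17-AAG, and 42.2 and 57.9 in control, overlapping and not called (adjusted p 0.52). In that list 5 fell and 2 rose, and 2 or 3 fell and 1 rose without control replicate 1, control replicate 3, 17-AAG replicate 1 or 17-AAG replicate 3.

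Nucleolar genes of ribosome assembly fell, while cytosolic ribosomal proteins were not called. Of 31 ribosome biogenesis genes 18 fell (58.1%, beside 14.3% of genes with signal of at least 100) and 2 rose, with a median of -0.46. The rRNA methyltransferase NOP2 had 130, 163 and 160 with 17-AAG, and 435 and 366 in control (-1.40 ± 0.15, adjusted p 0.0011). PNO1, needed for the small subunit, had 578, 754 and 578 with 17-AAG, and 1276 and 1235 in control (-0.99 ± 0.14). RRS1 (-1.28), UTP20 (-0.86), LYAR (-0.82) and nucleolin NCL (-0.68) fell, and the 2 that rose were MYC and WDR12 (0.37). Without control replicate 1, 10 fell and none rose, without control replicate 3, 6 fell and none rose, and 1 rose without any one of the 17-AAG arrays. Of 37 cytosolic ribosomal protein genes 0 were called in either direction by limma, 2 had an unadjusted p under 0.05, and the median was 0.05. Mitochondrial ribosomal proteins had 13 falls (29.5%) and 1 rise (2.27%) among 44. MRPL27 (-0.76 ± 0.10) and MRPS11 (-0.79 ± 0.14) were among those that fell. There were 4 falls without control replicate 1, 3 without control replicate 3, 8 without 17-AAG replicate 1 and 7 without 17-AAG replicate 3, and no rise in any of the 5 fits.

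Respiratory chain subunits moved the other way from the mitochondrial ribosomal proteins, by small amounts, with a median of 0.18. Of 40 subunits 11 rose (27.5%) and 1 fell (2.5%), beside 18.5% and 14.3% of genes with signal of at least 100. NDUFA1 of complex I had 3937, 3984 and 3822 with 17-AAG, and 2476 and 2848 in control (0.56 ± 0.09). UQCRC2 of complex III had 4007, 4072 and 4068 with 17-AAG, and 2878 and 3058 in control (0.45 ± 0.07), but -0.073 with its probe sets averaged, and NDUFS3 fell by 0.43 ± 0.08. With each array centred on its median 3 rose, so the count depends on the scaling. It was 3 without control replicate 1, 5 without control replicate 3 (where none fell), 5 without 17-AAG replicate 1 or 3, and 7 without 17-AAG replicate 2. Splicing factors fell in 18 of 36 (50%, beside 14.3% of genes with signal of at least 100) with 0 rises and a median of -0.39. TRA2A, an SR-like regulator, had 319, 276 and 367 with 17-AAG, and 647 and 647 in control (-1.02 ± 0.13), PRPF3 fell by 0.78 and U2AF2 by 0.72. Falls numbered 7 without control replicate 1 or 3 and 11 without 17-AAG replicate 1 or 3, and 1 gene rose without 17-AAG replicate 2. Against these controls splicing factors stood at -0.25 with Wee1 inhibitor II alone and -0.37 with both drugs, and ribosome biogenesis genes at -0.42 with Wee1 inhibitor II alone and -0.35 with both drugs.

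**Figure D4:**
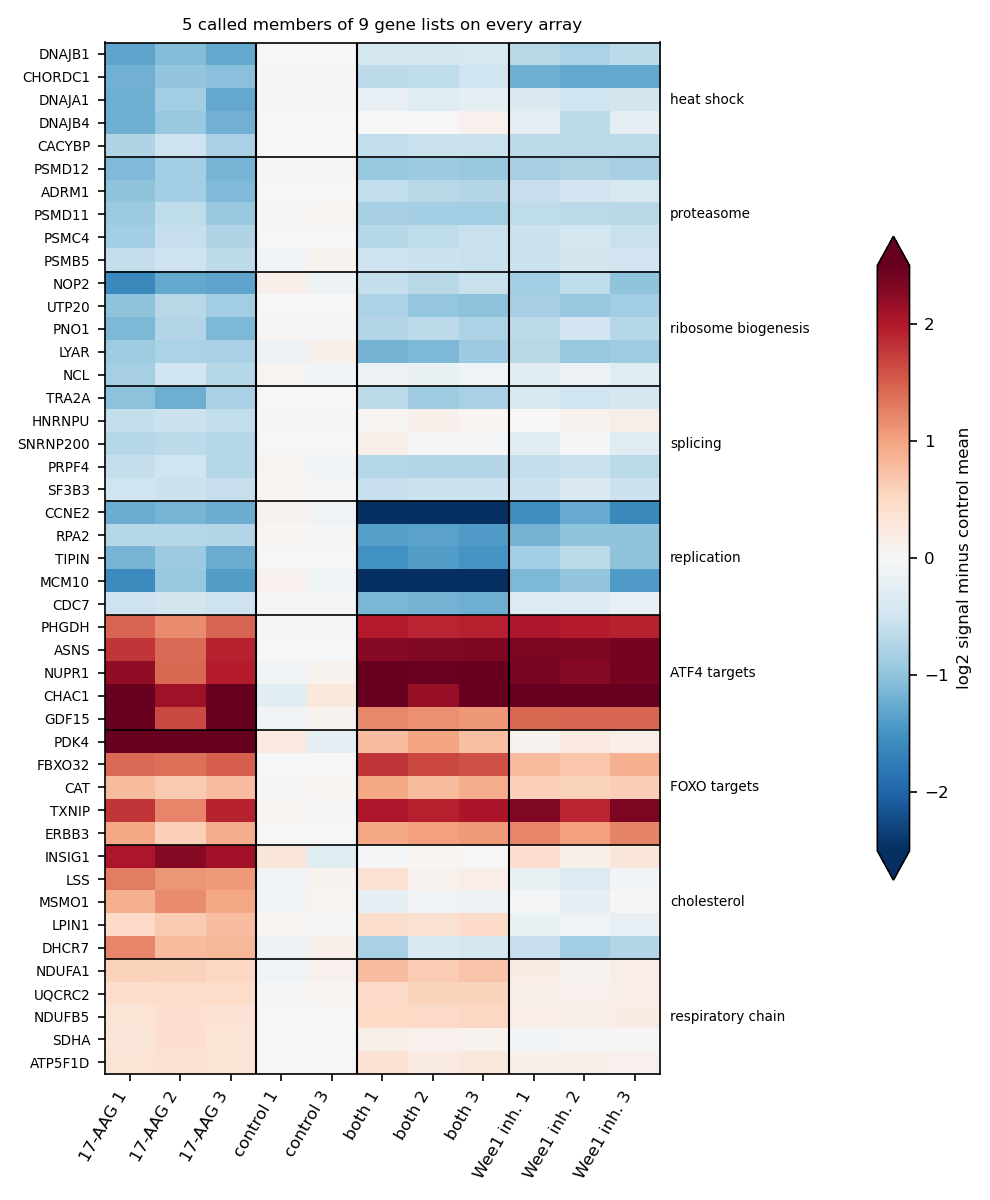
Log2 signal minus the mean of the 2 control arrays (colour, saturating at 2.5 in either direction) for 5 called members of each of 9 lists on 11 arrays, with 17-AAG and control in the left blocks. The genes shown, like all called genes with signal of at least 100, lie to one side of control on each 17-AAG array. ATF4 target genes are also high on the arrays with Wee1 inhibitor II.

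Cell death genes gave a mixed picture. Of all genes with signal of at least 100, for comparison, 18.5% rose and 14.3% fell. Of 20 pro-apoptotic genes of the mitochondrial pathway 3 rose (15%) and 1 fell (5%), with a median of 0.01. BCL2L11 was the largest, and PMAIP1 (NOXA), which neutralises MCL1, had 738, 557 and 701 with 17-AAG, and 413 and 436 in control (0.64 ± 0.13, adjusted p 0.011). HRK rose (0.60 ± 0.15) and BNIP3 fell (-0.50 ± 0.10). Here 1 rose without control replicate 1, and without control replicate 3, none fell. Of 12 anti-apoptotic genes 3 fell (25%) and 2 rose (16.7%). BIRC2 (cIAP1), a ubiquitin ligase of TNF signalling, had 1019, 818 and 854 with 17-AAG, and 1785 and 1752 in control (-0.99 ± 0.12, adjusted p 0.0017). BAG1 fell (-0.54 ± 0.11), and BCL2A1 (0.45 ± 0.08) and BCL2 (0.51 ± 0.11) rose, although BCL2 was lower when its probe sets were averaged, at -0.32. Without control replicate 1, 1 fell and none rose, and without control replicate 3, 1 fell. MCL1 (0.06 ± 0.11, adjusted p 0.79) and BCL2L1 (0.31 ± 0.19, adjusted p 0.35) were not called. Of 13 death receptor genes, TNFRSF21 (1.40 ± 0.12) and TRADD (0.53 ± 0.14) rose and CASP8 (-0.59 ± 0.11) fell; 1 rose and none fell without either control array, and 1 rose without any one of the 17-AAG arrays. Of 22 p53 target genes 6 rose, SESN2 and GDF15 the most, and 3 fell, AEN (-1.07), MDM2 (-0.67) and PLK2 (-0.58), and 1 fell without either control array.

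Redox, matrix and cytoskeletal genes completed the account. Of all genes 9.93% rose and 6.80% fell, and of those with signal of at least 100, 18.5% rose and 14.3% fell. Of 25 NRF2 and oxidative stress genes 8 fell and 5 rose. GCLM, the modifier subunit of glutathione synthesis, had 745, 849 and 764 with 17-AAG, and 1615 and 1669 in control (-1.07 ± 0.09, adjusted p 0.00051). SRXN1 had 601, 693 and 591 with 17-AAG, and 1170 and 1223 in control (-0.93 ± 0.10), and HMOX1 fell by 0.83. Without control replicate 1, 5 fell and 2 rose, and without control replicate 3, 2 fell and 3 rose. Of 36 glycolysis and hypoxia genes 5 rose and 4 fell, with 0 of either without control replicate 3. The count was 1 rise and 2 falls without control replicate 1, and 3, 2 and 1 rises without 17-AAG replicates 1, 2 and 3. Of 38 matrix and integrin genes 8 fell (21.1%) and 6 rose (15.8%). Thrombospondin THBS1 had 2198, 2388 and 2352 with 17-AAG, and 5540 and 5343 in control (-1.24 ± 0.11, adjusted p 0.00056), fibronectin FN1 fell by 0.69, and the laminin LAMA5 rose by 1.20. Falls numbered 5 without either control array, with 2 rises without control replicate 1, 17-AAG replicate 1 or 17-AAG replicate 3 and 1 without control replicate 3. Of 13 tubulins 5 fell and 1 rose, TUBB6 the most (-0.96 ± 0.13), while TUBA1A had 3941, 5046 and 3930 with 17-AAG, and 2132 and 2270 in control (0.96 ± 0.13). Tubulin falls were 3 without control replicate 1 or 17-AAG replicate 1 and 2 without control replicate 3. TPM1, a tropomyosin and SRF target, had 690, 678 and 626 with 17-AAG, and 1674 and 1727 in control (-1.36 ± 0.09, adjusted p 0.00023). It was the largest of 5 falls among 22 YAP and SRF targets, of which 1 fell without either control array and none of which rose in any of the 5 fits.

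Of 30 interferon-stimulated genes 8 rose (26.7%) and 5 fell (16.7%), beside 9.93% and 6.80% of all genes, or 18.5% and 14.3% of those with signal of at least 100. At such signal IFI6 (0.64), IFI35 (0.57), IFIT1 (-0.78) and IFIT5 (-0.77) were the furthest. Without 17-AAG replicate 1, 4 of these interferon-stimulated genes rose. The list median, 0.06, was 0.10 without control replicate 1 and 0.05 without control replicate 3. Their falls were 2 without control replicate 1, 3 without 17-AAG replicate 2, and 1 without control replicate 3 or 17-AAG replicate 1 or 3. Of 23 inflammatory and NF-kB targets, CXCL8, dim at 91.4 and 88.1 in control, and NFKB1 (-0.37) fell and TNFAIP3 (0.50) rose, of which 1 fell without either control array or without 17-AAG replicate 1 or 3, and of the 5 fits only that without 17-AAG replicate 3 kept the rise. Among 14 histone genes, with polyadenylated transcripts or from replication-dependent clusters, 5 rose and 1, H2AX (-0.60 ± 0.10), fell. Their list median, 0.12, was 0.11 without control replicate 1 and 0.08 without control replicate 3, and 3 rose without 17-AAG replicate 1. Of 16 factors of epithelial-mesenchymal transition and the neural crest, ZEB1, TFAP2A (0.89 ± 0.09), TWIST1 (0.82 ± 0.07), PAX3 (0.51) and SOX10 (0.40) rose and SNAI2 (-0.43 ± 0.08) fell. Without either control array 3 rose and none fell, and 3 rose without 17-AAG replicate 1 or 3. MT1M, below the array medians on the 5 arrays, was the 1 fall among 9 metallothioneins, and it lost its call without any 1 of the 5 arrays.

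Pigment cell genes, measured because the arrays carry them, were higher with 17-AAG. Of 15 markers 8 rose (53.3%) and 1 fell (6.67%), beside 18.5% and 14.3% of genes with signal of at least 100. The median of the markers was 0.40, and their summed signal ran from 51563 to 56815 with 17-AAG, and from 41311 to 43405 in control. Tyrosinase TYR, the first enzyme of melanin, had 3748, 4561 and 4123 with 17-AAG, and 1950 and 2377 in control (0.94 ± 0.14, adjusted p 0.0038). MITF, the master regulator of melanocytes, had 5755, 6708 and 6033 with 17-AAG, and 4433 and 4828 in control (0.41 ± 0.11, adjusted p 0.044). PMEL (0.49 ± 0.09) and MLANA (0.40 ± 0.09) rose too, and BCAN fell (-0.92 ± 0.19). The count depended on the controls and the scaling: 1 rose without control replicate 1, 4 without control replicate 3 (where none fell) or 17-AAG replicate 1, 5 without 17-AAG replicate 2, 3 without 17-AAG replicate 3, and 3 with each array centred. Their part in the other results was not tested. Prostate and epithelial markers had 0 calls by limma among 14, with summed signals of 955 to 1015 with 17-AAG and 936 to 978 in control. Of 8 fibroblast markers LUM rose (0.71 ± 0.10), 1 more fell without control replicate 1, and of 7 blood cell markers none reached 100.

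The same drug was tested a second time where Wee1 inhibitor II was present, with fold changes from 6 arrays that do not enter those of the first comparison. The calls of both comparisons rest on a spread shared over all arrays fitted, so they are not independent of each other. With both drugs against Wee1 inhibitor II alone, 1438 genes rose (7.27%) and 1353 fell (6.84%), 14.1% in all. Of the 2781 genes called above with signal of at least 100, 1836 (66.0%) had the same sign there, 793 (28.5%) were called the same way and 181 the opposite way. For comparison, 2310 of all 8479 genes with such signal were called there in either direction, whatever their first result. Of the other 5698 genes with signal of at least 100, 55.6% had the same sign. The median of the 1570 rises was 0.65 with 17-AAG alone and 0.16 with the inhibitor present, and that of the 1211 falls was -0.57 and -0.11, but these genes were picked for size in the first comparison. The interaction was called for 1241 of the 2781 (44.6%), against 11.8% of all genes, and it shares the arrays of the first comparison. It was called for 2065 genes with signal of at least 100 in any group fitted, a wider set than the 8479. Across the genes with signal of at least 100 the log2 fold changes of the comparisons had a Pearson r of 0.31, over genes that are not independent replicates.

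Some of the changes recurred and some did not. LDB3 averaged 281 with both drugs and 74.8 with Wee1 inhibitor II alone (1.91, adjusted p 4.4e-05, interaction not called), and ENPP2 averaged 183 and 67.4 in those groups (1.44, adjusted p 8.1e-05). DKK1 averaged 59.4 with both drugs and 562 with Wee1 inhibitor II alone (-3.24, adjusted p 4.4e-05), and TPM1, below the 30 largest, averaged 965 with both drugs and 2682 with Wee1 inhibitor II alone (-1.47). NOX4 averaged 328 with both drugs and 361 with Wee1 inhibitor II alone (-0.14, adjusted p 0.77), and ID3 136 and 153 (-0.17, adjusted p 0.34). Called the opposite way were ZEB1, at 55.7 with both drugs and 123 with Wee1 inhibitor II alone (-1.14, adjusted p 0.020), and ID2. ID2 was higher with both drugs, 860, than with Wee1 inhibitor II alone, 427 (1.01, adjusted p 0.00072). By list, heat shock genes had 11 rises and 1 fall with the inhibitor present and a median of 0.21, in place of 1 rise and 11 falls without it, and 15 of the 30 had a called interaction. DNAJB1 averaged 889 with both drugs and 725 with Wee1 inhibitor II alone, for an interaction of 1.52 (adjusted p 0.00083). Of the ATF4 targets 3 rose and 1 fell, with a median of -0.05 and 23 of 37 interactions called. Of the immediate early and ERK feedback genes 0 rose and 18 fell, with a median of -0.69 and 24 of 31 interactions called. Of the mitotic genes 58 of 59 fell, with a median of -1.58 and 51 interactions called. Respiratory chain genes had similar medians in both settings, with 13 rises there, a median of 0.23 and 2 interactions called among 40.

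**Figure D5:**
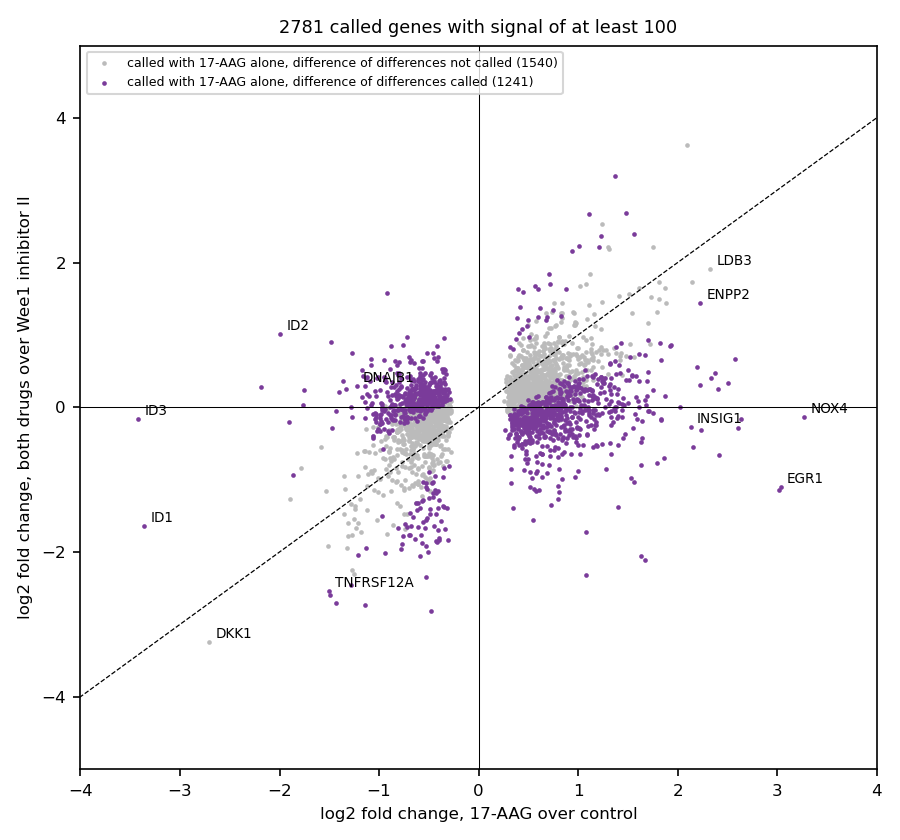
Log2 fold change of 17-AAG over control (x axis) and of both drugs over Wee1 inhibitor II (y axis) for the 2781 called genes with signal of at least 100. Purple points have a called difference between the differences (1241 genes), grey points do not, and the dashed line marks equal change, near which LDB3 and DKK1 lie.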

How the data were processed

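Total RNA (100 ng) was labelled and hybridised to 3′ expression arrays, per the labels' protocols. The deposited values are linear intensity values, 1 per probe set and array. The submitters' processing notes name RMA and Partek 6.5, but each array has a 2% trimmed mean of 150 and the scale is linear, so which step made these values is not given in the sources used here.

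Log2 was taken without a pseudocount. Of 54675 probe sets, 62 were controls, 1801 carried several symbols and 11721 none, and these were left out. For each of 19775 symbols the probe set with the highest mean was kept. limma 3.58.1 in R 4.3.3 was fitted on 11 arrays with a mean for each group, since 3 against 2 arrays leave few degrees of freedom, with Benjamini-Hochberg adjustment over all genes and a threshold of 0.05. Contrasts were 17-AAG against control, both drugs against Wee1 inhibitor II, and the difference of these. Errors of fold changes are limma's SE. The fit was tested on simulated data. With arrays, the number of arrays limits the precision.

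Named genes are the 15 largest called rises and falls, the 4 called members of smallest p in each list, and 23 fixed genes. The largest changes were taken with signal of at least 100 and no overlap of arrays between groups. Other list members, given by their log2 fold change alone, were chosen after their values were seen. The comparison and the lists were chosen with earlier results of these data known. Same-numbered arrays of different groups deviated from their group means with correlations of -0.137 to 0.096 over 15 pairs, so the numbers were not taken to pair samples. Alternatives were other scalings, filters, probe set rules, a replicate block and leaving out each array. Promoters came from RefSeq on GRCh38.p14. Besides the 2 cores shown, cores for SREBP (TCACNCCAC) and E2F (TTTCCCGC) were searched. The SREBP core stood in 1 of 18 cholesterol gene promoters, against 0.832% of the 15384. The E2F core stood in 7 of 43 replication gene promoters, against 1.86%, in 2 of 17 called members and 5 of 26 not called.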

Additional observations from a re-analysis of the deposited data

Results flagged for a closer look

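The effect of 17-AAG differed with and without Wee1 inhibitor II, by limma's test of the difference of differences, for 120 of the 223 genes named, against 11.8% of all genes. Many named genes were picked by their change with 17-AAG against control. That change is subtracted in the test, on the same arrays, so a high share among them is partly built in. Given here are the differences called among the 30 largest changes and the fixed genes. Negative values mean that the log2 fold change of both drugs over Wee1 inhibitor II was below that of 17-AAG over control. Among the largest rises, the difference was -3.41 for NOX4, -4.14 for EGR1, -4.16 for ZEB1, -2.80 for CHAC1, -2.89 for SESN2, -1.91 for PDK4, -2.17 for IMMP2L and -3.07 for TRIB3. It was -2.16 for APCDD1, -1.91 for MAP4K3-DT, -1.94 for ST6GALNAC2, -2.55 for GDF15, -1.92 for SEL1L3 and -0.78 for ENPP2. Among the largest falls it was 3.25 for ID3, 1.72 for ID1, 2.46 for MIR3682, 3.00 for ID2, 1.70 for MMP8, 0.93 for PLPP4, 1.79 for AMPH and 1.99 for TMEM45A, and -1.04 for TNFRSF12A. Among the other genes it was 1.52 for the chaperone DNAJB1, 0.78 for CDK4, -0.91 for CCNB1, -1.42 for PMAIP1, -1.36 for WEE1, -2.01 for CDK1 and 2.05 for the receptor MET.

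Control replicate 2, which no comparison above uses, had 4 of 14 prostate and epithelial markers at a signal of at least 100, 2087 for HOXB13, 1096 for EPCAM, 615 for KRT8 and 2238 for KRT18. The other 10 lay at or below 79.9, and ESRP1 was 48.5 there, against 142 to 728 on the 11 arrays fitted, while HOXB13 lay at or below 11.3 on the 5 arrays compared. Of genes listed as deleted or inactivated in PC3, CTNNA1 was 1.57 on control replicate 2, against 2559 to 5040 on the 11 arrays, and STAT3 was 7.54, against 819 to 1296. Of the pigment cell genes, MLANA was 2.67 there, against 2865 to 9916, while MITF, MCAM and RAB27A stayed above 100, at 303, 196 and 182. What this array holds was not tested.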

How the results depend on the processing

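With control replicate 2 included, the 3309 genes called for 17-AAG against control became 480, the 2791 for both drugs against Wee1 inhibitor II became 389, and the 2331 differences of differences became 119. Averaging the probe sets of a gene gave 1768, 1664 and 1099 in the same order, and requiring a 2-fold change gave 710, 734 and 895. In the fit of only the 5 arrays, limma called 0. Leaving out the dimmest 40% of genes gave 3558 differences of differences. Leaving out 1 array gave 1705 to 3159, 1996 to 2172, and 1350 to 2223. Replicate numbers did not pair the samples, and with a replicate block 2574, 2194 and 1483 were called. The share of higher among the called genes was 59.4%, and 74.1% among those changed at least 2-fold. Counts among genes with signal of at least 100 in any group of the contrast, a different set of genes each time, were 2781, 2398 and 2065. That limit was added after seeing the data. With control replicate 2 included, the log2 fold change turned to 0.38 for MMP8, 0.43 for AMPH, 0.30 for NFKB1, 0.023 for CCNB1, -0.80 for H2BC12, -0.35 for TNFRSF21, 0.77 for ADM, 1.32 for ITGB3, 0.55 for SNAI2 and 0.091 for TUBB6. With averaged probe sets it turned to -0.13 for TP53INP1, -0.32 for BCL2 and -0.073 for UQCRC2. Of 177 named genes refitted, 163 lost the call in the fit of 5 arrays, 99 with control replicate 2 included, 88 under the 2-fold limit, 41 with averaged probe sets, 35 without control replicate 3, 34 without control replicate 1, and 8 under the block. The causes were not tested, except that the fit of 5 arrays has fewer arrays. Low signal limits dim genes, whose arrays differ most within a group.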
